A study of Rattus norvegicus with 74 samples.

Results

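The mitochondrial fraction of rat hindlimb muscle was set against the whole muscle of the same sedentary animals. The comparison used 30 of the 74 libraries of the series, chosen by their titles: 15 libraries of isolated mitochondria (MT_Sed) and 15 of whole skeletal muscle (SM_Sed), 1 of each from 15 rats and paired by rat number. All 15 rats were wild-type male Wistar Kyoto animals aged 9 weeks, drank water with deuterium oxide, and stood on a treadmill that did not run (Sed). The inner red gastrocnemius was taken 24 h after the last session. One piece was frozen for whole-tissue RNA. From a fresh piece, mitochondria were immunoprecipitated, and RNase-A and proteinase-K digestion followed. The MT libraries were made from 10 ng of RNA and the SM libraries from 50 ng, with the same ribosomal-depletion kit. RNA input, tissue state and extraction kit therefore differed with the fraction and cannot be told apart from it.

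A mitochondrion carries its own small circular genome, which encodes a few inner-membrane subunits of the respiratory chain together with the rRNAs and tRNAs that translate them. All other mitochondrial proteins, among them most subunits of the respiratory complexes and every mitochondrial ribosomal protein, are encoded in the nucleus, translated on cytosolic ribosomes and imported. Red muscle is rich in mitochondria, while its most abundant messages encode the contractile apparatus, which lies outside the organelle.

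MT_Sed libraries held 712067 to 8344505 counts (median 1503193), and SM_Sed libraries 20876971 to 32055355. Most of the spread in MT_Sed came from the mitochondrial genome, with 114922 to 7696004 counts per library, a 67.0-fold range. Nuclear-encoded counts spanned 506737 to 1055433, a 2.08-fold range. Some libraries stood apart. In rats 12, 19 and 23 the MT library held a smaller share of mitochondrial-genome counts than the SM library of the same rat. The MT libraries of rats 15 and 20 had the highest share of muscle fibre genes, and the SM library of rat 7 held counts on genes of the liver. Results that rest on them are given with and without these rats. A gene below about 3 counts in a library was not measurable, which corresponds to 0.733 to 1.53 CPM in MT_Sed and 0.147 to 0.236 CPM in SM_Sed. Here and below, CPM values are library-size-normalised counts after TMM scaling, a scaling that assumes that most genes do not differ. These limits cover counting error only.

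Mitochondrial-genome genes took a median of 51.5% of the counts in MT_Sed (lowest 12.9%, highest 92.2%) and 30.7% in SM_Sed (22.1% to 35.9%). The share was higher in the mitochondrial fraction in 12 of 15 rats, by 20.5 percentage points on average (SD 23.1). The groups overlapped. The labels name no batch, but the rat numbers fall into 4 to 16 (7 rats) and 19 to 32 (8 rats), and the MT libraries of these ranges had median nuclear-encoded counts of 549587 and 828998. An exact two-sided permutation test that flips the sign of each rat's difference gave q = 0.00696, adjusted over the 26 single-value tests computed here. The difference was 23.7 points within the lower numbers (exact permutation q = 0.0542, n = 7) and 17.7 points within the higher numbers (exact permutation q = 0.126, n = 8), so the call did not hold within either range of rat numbers.

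The make-up of the mitochondrial-genome counts changed mainly in its tRNA genes. Counts on the 22 mitochondrial tRNA genes formed a median of 0.275% of mitochondrial-genome counts in MT_Sed (0.0530% to 0.950%) and 0.0197% in SM_Sed (0.0132% to 0.0278%). The groups did not overlap, the share was higher in the mitochondrial fraction in 15 of 15 rats, and q was 1.4e-04, which follows from the smallest p the exact permutation test can give (6.1e-05). The 2 rRNA genes took a median of 77.6% in MT_Sed and 75.9% in SM_Sed, higher in 10 of 15 rats (exact permutation q = 0.464). The 13 mRNA genes took 22.02% and 24.13%, higher in 5 of 15 rats (exact permutation q = 0.313). Neither difference was larger than the spread between rats.

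**Figure D1:**
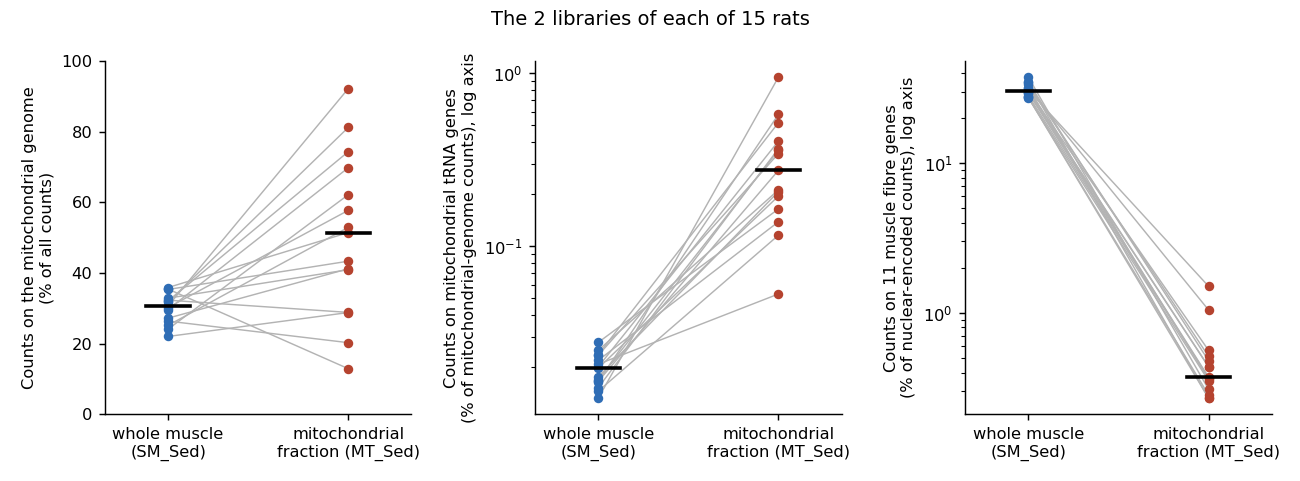
Values of the 2 libraries of each of 15 rats, joined by a line, with the group median as a bar. The left panel gives the percent of all counts on the mitochondrial genome, the middle panel the percent of mitochondrial-genome counts on tRNA genes (log axis) and the right panel the percent of nuclear-encoded counts on 11 muscle fibre genes (log axis). The tRNA share rose in all 15 rats and the fibre share fell in all 15, while the mitochondrial-genome share rose in 12.

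The tRNA counts lay on few genes. Of the 22 tRNA genes, 12 had at most 4 counts in every library of both groups, 1 reached 22 counts, and 9 passed the filter on low counts. The quasi-likelihood test of edgeR, with rat as a block and Benjamini-Hochberg adjustment over all 22842 genes tested, called 8 of the 9 higher in MT_Sed, where 61.7% of all tested genes were called higher. Of the 8, 5 passed the filter in both fractions, where 27.3% of genes were called higher, and 3 did not pass it in whole muscle, so that their selection favoured the call. All 8 genes were higher in all 15 rats, with log2 fold changes from 1.73 to 6.81, and held 99.4% of the tRNA counts of MT_Sed and 98.4% of those of SM_Sed. With the mitochondrial-genome total as the library size, a scale on which 59.3% of tested genes were higher, the same 8 genes were called higher. The deposited tables give these genes clone names and no tRNA names. The one with the largest difference, ENSRNOG00000032997, stood at 27.3 to 183 CPM in MT_Sed (median 54.5) and at 0.146 to 0.966 CPM in SM_Sed (median 0.496), without overlap (log2 fold change 6.81). It is one of the 3 that did not pass the filter in whole muscle, and its call carries no weight. ENSRNOG00000029145, which passed in both fractions, stood at 44.9 to 479 CPM (median 130) and at 28.5 to 51.5 CPM (median 38.4), with an overlap (log2 fold change 1.73, SE 0.25, edgeR adjusted p = 6.9e-06). That fold change was slightly below the median of all tested genes (1.85) and above the median of genes that passed in both fractions (-0.80). The genes of the mitochondrial genome abut each other, and counts of neighbours on the 2 strands were not separated here.

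Over the 15 MT_Sed libraries the tRNA counts varied less than the mRNA counts. They spanned 706 to 6884 per library, a 9.75-fold range, against 30032 to 1447365 for the 13 mRNAs, a 48.2-fold range. The 2 counts, on a log2 scale, had a Pearson r of 0.79 (permutation q = 0.00264) and a Spearman rho of 0.70 (permutation q = 0.0177) over 15 libraries, adjusted over 4 relations. Without the 2 libraries farthest from the median mRNA count r was 0.79, and it was 0.88 within each range of rat numbers. The tRNA counts and the nuclear-encoded counts had an r of 0.55 (permutation q = 0.0457) and a rho of 0.54 (permutation q = 0.0806). Without the 2 libraries farthest from the median that r was 0.44 (permutation p = 0.135) over the 13 left. Within rats 19 to 32 it was -0.07. As CPM over nuclear-encoded counts alone, tRNA genes were at 1321 to 8965 in MT_Sed and 63.4 to 109 in SM_Sed, higher in all 15 rats. The mRNA counts on that scale were higher in 12.

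Within the 13 mRNAs the mitochondrial fraction had its own proportions. These shares were examined after their values had been seen. Mt-cyb, cytochrome b of complex III, made 8.92% to 11.2% of mRNA counts in MT_Sed (median 10.1%) and 7.53% to 9.09% in SM_Sed (median 8.23%). Mt-nd1, a core subunit of complex I, made 5.24% to 7.13% (median 6.44%) and 4.15% to 5.21% (median 4.80%). Both shares were higher in the mitochondrial fraction in 15 of 15 rats (exact permutation q = 1.4e-04 each). Mt-nd5, another membrane subunit of complex I, had the largest gain, from a mean of 6.19% ± 0.597 to 9.93% ± 1.78 (SD, n = 15 each), higher in 14 of 15 rats (exact permutation q = 2.4e-04). Within rats 4 to 16 the Mt-nd5 gain was 2.99 points and lost the call (exact permutation q = 0.0542, n = 7), and within rats 19 to 32 it was 4.40 points (exact permutation q = 0.0119, n = 8).

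The shares of other mRNAs fell. Mt-atp6, the proton-channel subunit of ATP synthase, made 8.68% to 9.54% in SM_Sed and 5.53% to 7.38% in MT_Sed, lower in 15 of 15 rats and without overlap (exact permutation q = 1.4e-04). Mt-nd4l, which shares a transcript with Mt-nd4, was lower in 15 of 15 rats, with means of 1.02% ± 0.128 in SM_Sed and 0.772% ± 0.0856 in MT_Sed (SD, n = 15 each, exact permutation q = 1.4e-04). Mt-co1, the catalytic subunit of complex IV, fell from a mean of 41.0% ± 1.81 to 35.3% ± 3.23 and Mt-nd4 from 9.63% ± 0.592 to 8.66% ± 0.409, each lower in 14 of the 15 rats. The Mt-co1 difference lost the call within rats 4 to 16 (-4.06 points, exact permutation q = 0.0717, n = 7) and was -7.19 points within rats 19 to 32. Mt-nd2, Mt-co2 and Mt-nd6 gained share with exact permutation q values of 0.00317, 0.00317 and 0.0123, and Mt-nd3 lost share (q = 0.0221). None of these 4 calls held in rats 4 to 16, where the differences were 0.98, 0.37, 0.44 and -0.19 points (exact permutation q = 0.128, 0.142, 0.504 and 0.0542, n = 7). That of Mt-nd3 was -0.02 points in rats 19 to 32 (exact permutation q = 0.643, n = 8), and its call was also lost without the rats of lower share (q = 0.0598). Mt-co3 (6.09% and 6.04%, q = 0.761) and Mt-atp8 (q = 0.0804) did not pass the threshold. Mt-atp8 differed by 0.03 points in rats 4 to 16 (exact permutation q = 0.213, n = 7) and by -0.10 points in rats 19 to 32 (exact permutation q = 0.0119, n = 8), in opposite directions. The counts of the rRNA gene ENSRNOG00000043866 over those of ENSRNOG00000030478 had a median ratio of 1.12 in MT_Sed and 0.992 in SM_Sed, higher in 12 of 15 rats (exact permutation q = 0.0104). The mean difference of 0.11 was 0.02 in rats 4 to 16 (exact permutation q = 0.75, n = 7) and 0.19 in rats 19 to 32 (exact permutation q = 0.0119, n = 8).

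**Figure D2:**
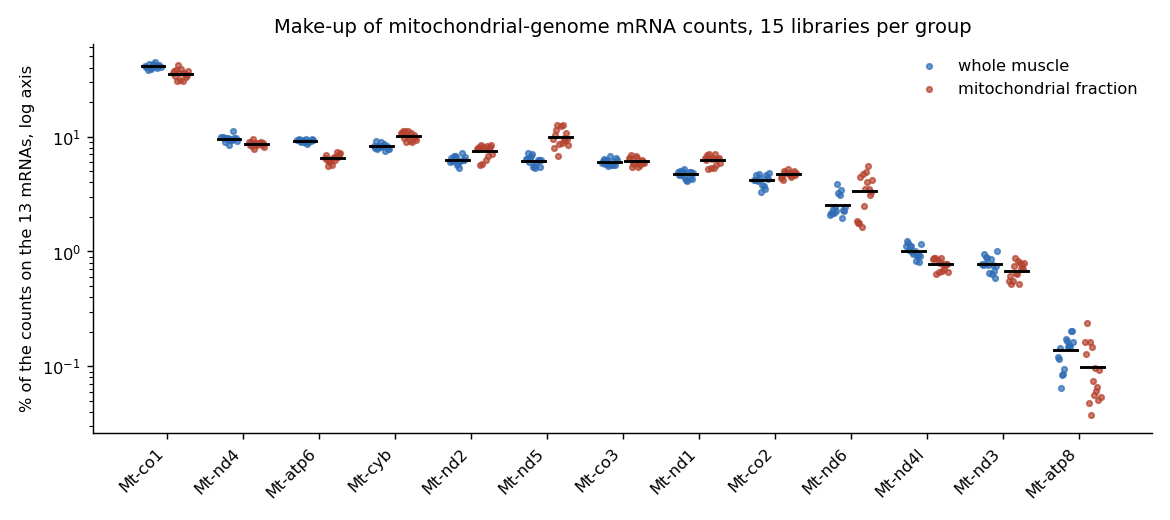
Percent of the counts on the 13 mitochondrial-genome mRNAs that each gene took (log axis), 1 point per library and a bar at the mean of 15. Mt-atp6 and Mt-nd1 do not overlap between the groups, and Mt-cyb, Mt-nd1 and Mt-nd5 lie higher in the mitochondrial fraction.

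As levels across the whole library, the 13 mRNAs depended on the scaling. With TMM scaling and the rat block, 7 of the 13 were called lower and 0 higher. All 13 passed the filter in both fractions, where 63.0% of genes were called lower and 27.3% higher. Of all tested genes 33.0% were called lower, and the median gene was 1.85 higher on the log2 scale. Mt-atp6 was at -1.44 on the log2 scale (SE 0.39, edgeR adjusted p = 0.00236) and Mt-co1 at -1.17 (SE 0.41, edgeR adjusted p = 0.0113). Mt-co1 ranged from 3074 to 261794 CPM in MT_Sed around a median of 18882, and from 29192 to 61524 CPM in SM_Sed around 46297. Its level was higher in the mitochondrial fraction in 4 of 15 rats. With library totals alone, 12 of the 13 had a fold change above 0. With the mitochondrial-genome total as library size edgeR called 0 of the 13, and 0 had an unadjusted p under 0.05. Leaving out rats 15 and 20 raised the number of complex I mRNAs called lower from 3 to 6 of 7, and leaving out the rats of lower share took it to 1.

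Grouped by their level in whole muscle, nuclear-encoded genes had group medians that spanned a narrower range in the mitochondrial fraction than in whole muscle. Sorting by whole muscle favours such a difference by itself, and the spread of single-gene levels was not compared between the fractions. Tested genes were grouped by their mean CPM in SM_Sed, with no scaling for gene length. The 4493 genes at or below 0.01 CPM in SM_Sed had a median of 3.87 CPM in MT_Sed, which their selection sets, because such genes can pass the filter only through MT_Sed. Over all 10414 nuclear-encoded genes of that group, tested or not, the median was 1.43 CPM. The 4636 genes between 1 and 10 CPM had a median of 9.03 CPM in MT_Sed, and the 90 genes above 1000 CPM had 22.2 CPM there, against 2283 CPM in SM_Sed. In the groups above 1 CPM the filter removed 10 genes of the lowest and none of the others, and the median log2 fold change moved from 1.14 to -6.84. The SM_Sed level is also the denominator of that fold change, so the grouping itself favours this trend.

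**Figure D3:**
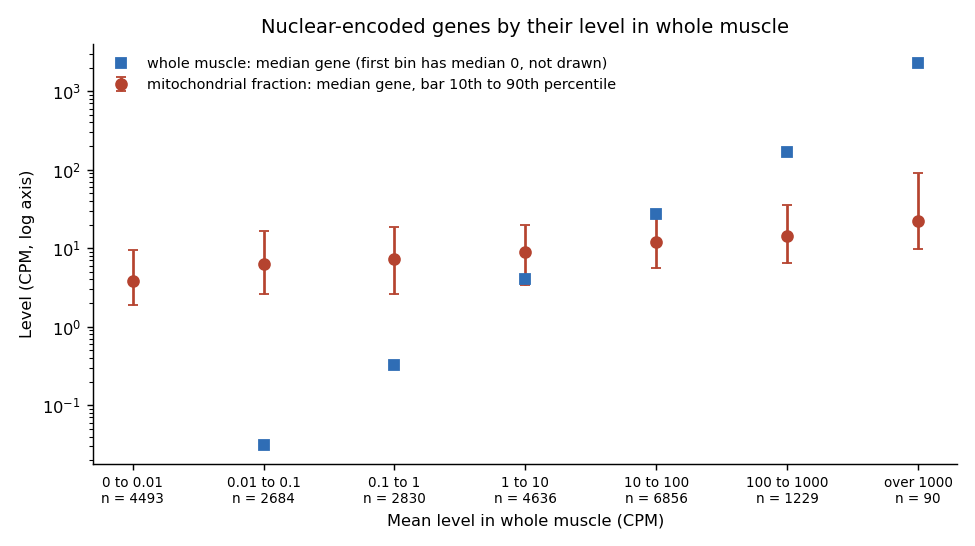
Tested nuclear-encoded genes grouped by their mean level in whole muscle. Squares give the median gene in whole muscle and circles the median gene in the mitochondrial fraction with the 10th to 90th percentile (CPM, log axis). Above 1 CPM the medians of the mitochondrial fraction run from 9.03 to 22.2 CPM while those of whole muscle reach 2283 CPM, and the groups below 1 CPM hold mainly genes that passed the filter through the mitochondrial fraction. Grouping by whole muscle favours the wider range there.

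Nearly every gene differed. Of 22842 genes tested, edgeR called 21626 (94.7%), 14083 higher (61.7%) and 7543 lower (33.0%) in MT_Sed. In 12447 of the former and 6376 of the latter all 15 rats had that direction. The split depended on the scaling. Of all calls 65.1% were higher with TMM, 84.8% with library totals alone and 89.97% with nuclear-encoded totals alone, as the log2 fold change of the median gene went from 1.85 to 3.29 and 4.48. The filter matters as well, because 10883 genes passed it through MT_Sed alone and 10865 of these were called higher, which their selection favours. Among the 11637 genes that passed in both fractions, 27.3% were higher and 63.0% lower, with a median log2 fold change of -0.80. Counts of list members are read against these shares.

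The contractile genes of the muscle fibre were lower in the mitochondrial fraction. All 11 measured genes of fast fibres and all 12 of slow fibres were called lower in MT_Sed, with median log2 fold changes of -8.75 and -6.44 and every member past the filter in both fractions. Acta1, skeletal muscle actin, stood at 29543 to 47580 CPM in SM_Sed (median 39845) and at 10.7 to 231 CPM in MT_Sed (median 20.6). The groups lay far apart, and the highest MT value was that of rat 15 (log2 fold change -10.49, SE 0.35, edgeR adjusted p = 1.1e-20; -10.74 without rats 15 and 20). Mylpf, the fast regulatory light chain, stood at 5843 to 16983 CPM and at 3.94 to 49.4 CPM (log2 fold change -10.24). Myh4, the myosin heavy chain of the fastest fibres, stood at 35699 to 116450 CPM in SM_Sed and at 49.2 to 236 CPM in MT_Sed (log2 fold change -9.63, SE 0.26). Myl1, Tnnc2 and Tnni2, a light chain and 2 subunits of fast troponin, had log2 fold changes of -9.47, -9.42 and -9.06. The slow genes with the largest deficit were Myh7, the slow myosin heavy chain (-7.87), and Actn2, the Z-disc crosslinker (-7.14).

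Titin was the only gene with a symbol among the 8 nuclear-encoded genes with the highest share of counts in MT_Sed, a share that does not allow for length. Ttn, the giant spring of the sarcomere, ranged from 365 to 3047 CPM in MT_Sed (median 620) and from 89334 to 215823 CPM in SM_Sed (median 135979). Its highest MT values were 3047 CPM in rat 20 and 1759 CPM in rat 15. The log2 fold change was -7.63 (SE 0.28), and -7.86 without these rats. Of the other genes in that group, 7 carry no symbol. They include ENSRNOG00000067240, at 1378 to 2242 CPM in MT_Sed and 0.193 to 2.55 CPM in SM_Sed. Another, ENSRNOG00000064423, stood at 774 to 968 CPM and 0 to 0.425 CPM. These 2 passed the filter only through MT_Sed. The rRNA gene ENSRNOG00000068307 passed in both fractions and overlapped, at 110 to 9309 CPM in MT_Sed and 335 to 8377 CPM in SM_Sed. It was higher in MT_Sed in 4 of 15 rats and was called lower (log2 fold change -1.19, SE 0.52, edgeR adjusted p = 0.0402).

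Other very long genes went both ways. Neb, the ruler of the thin filament, was lower (log2 fold change -7.55). Lrp1b, Cntnap2 and Csmd1, large surface proteins best known from neurons, were higher, with log2 fold changes of 5.41, 4.85 and 3.78, the first and second past the filter through MT_Sed alone. Nebl, a nebulin relative of heart muscle, was also higher (2.90). Csmd1 stood at 50.3 to 66.4 CPM in all 15 MT_Sed libraries and at 2.76 to 6.14 CPM in SM_Sed.

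**Figure D4:**
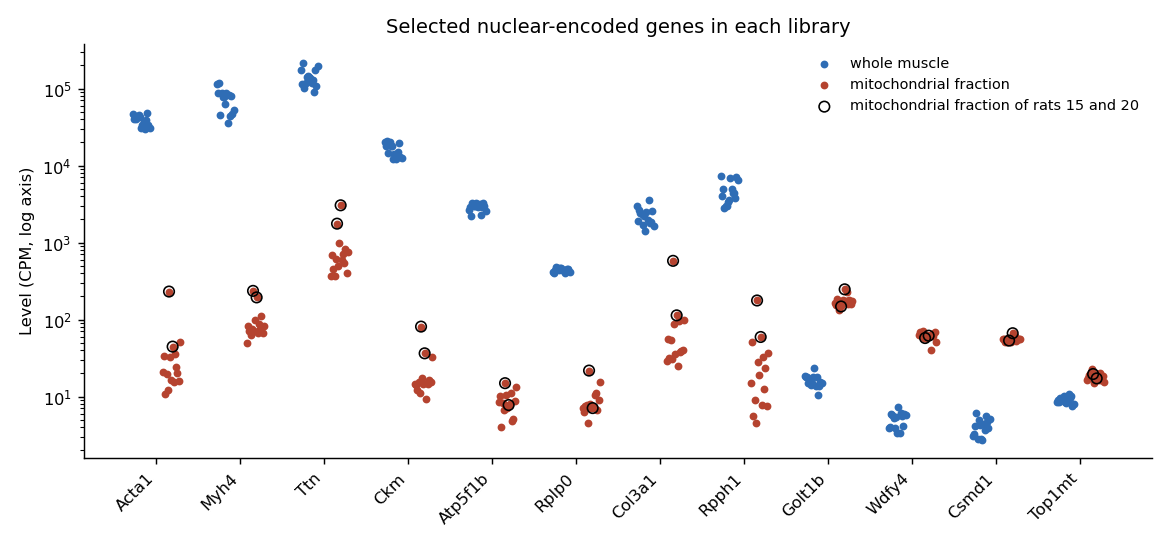
Level of 12 nuclear-encoded genes in each of 30 libraries (CPM, log axis), with the MT libraries of rats 15 and 20 ringed. Acta1, Ttn and Col3a1 are lower in every MT library than in any SM library, with rat 15 or 20 highest in the mitochondrial fraction, while Golt1b, Wdfy4 and Csmd1 are higher in every MT library.

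Together, 11 marker genes of the muscle fibre took 27.3% to 37.5% of nuclear-encoded counts in SM_Sed (median 30.4%) and 0.269% to 1.51% in MT_Sed (median 0.373%). Without rats 15 and 20 the range in MT_Sed was 0.269% to 0.563%. None of the 11 genes was at 0 in either group. The fibre share (log2) and the mitochondrial-genome share of the MT libraries had an r of 0.55 (permutation q = 0.0457) and a rho of 0.41 (permutation q = 0.169). Without the 2 libraries farthest from the median share r was 0.42 (permutation p = 0.155) over the 13 left. It was 0.75 within rats 4 to 16 (exact permutation p = 0.0468, n = 7) and 0.44 within rats 19 to 32 (exact permutation p = 0.284, n = 8).

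Genes of energy supply outside the organelle were lower too. All 4 measured genes of oxygen storage and phosphate buffering fell, with Ckm, muscle creatine kinase, at 12160 to 20918 CPM in SM_Sed and 9.36 to 81.0 CPM in MT_Sed (log2 fold change -9.75, SE 0.26), and Mb, myoglobin, at a log2 fold change of -7.34. Of 18 genes of glycolysis and glycogen use, 16 were lower. Pgam2, muscle phosphoglycerate mutase, and Pygm, muscle glycogen phosphorylase, had log2 fold changes of -8.34 and -8.33. The 2 that were higher were Hk1, hexokinase of many tissues (0.42, SE 0.08), and 1 of the 2 genes with the symbol Aldoa, where reads may be divided between near-identical copies. All 15 genes of calcium release fell, among them Casq1, the calcium store of the sarcoplasmic reticulum (-7.57), and Trdn, which anchors it (-6.67).

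The nuclear-encoded messages for mitochondrial proteins were lower in the mitochondrial fraction. Complex I had 33 of 36 genes lower (median log2 fold change -4.74), complex II 4 of 4 (-5.70), complex III 8 of 8 tested (-5.89), complex IV 10 of 11 (-6.01) and ATP synthase 14 of 16 (-5.50). Of the 36, 4, 8, 11 and 16 genes tested, 32, 4, 8, 11 and 14 had passed the filter in both fractions. In that class all were lower except Cox7a1. The direction of these medians was the same under the 4 other scalings. For scale, 63.0% of all genes that passed in both fractions were lower.

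Single subunits show the depth of the difference. Atp5f1b, the catalytic beta subunit of ATP synthase, stood at 2232 to 3311 CPM in SM_Sed (median 2971) and at 4.08 to 14.9 CPM in MT_Sed (median 8.35), far apart in all 15 rats (log2 fold change -8.43, SE 0.16, edgeR adjusted p = 7.8e-28). Atp5f1a, its alpha partner, had a log2 fold change of -7.61. In complex I, Ndufv2, a peripheral-arm subunit, stood at 390 to 731 CPM and at 1.21 to 6.14 CPM (-7.37, SE 0.14). Sdha, the flavoprotein of complex II, stood at 650 to 1167 CPM and at 10.4 to 21.3 CPM (-6.08, SE 0.11), and Sdhd, its membrane anchor, had -5.87. In complex III, Uqcrh and the Rieske protein gene Uqcrfs1 had log2 fold changes of -6.73 and -6.53. In complex IV, Cox7b and Cox6c had -7.29 and -7.25.

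A few symbols of the chain went the other way. Cox7a1, the muscle form of a complex IV subunit, stood at 6.07 to 15.0 CPM in MT_Sed and at 2.80 to 6.70 CPM in SM_Sed, higher in 15 of 15 rats, although the groups overlapped (log2 fold change 1.10, SE 0.13). The complex I symbols called higher included Ndufs6, which the tables class as a pseudogene, and 1 of 2 genes named Ndufb2. Both were at 0.268 CPM or less in every SM_Sed library and passed the filter through MT_Sed. One of 2 genes named Atp5mc1, classed as a lncRNA, was also higher. One of the 2 genes named Ndufs5 had 0 counts in every MT_Sed library and 20.2 to 33.3 CPM in SM_Sed, at least 23.5-fold lower against a floor of 3 counts per library. It was the only one of 10036 nuclear-encoded genes with a mean of 5 CPM or more in SM_Sed that had no count in MT_Sed, and this was seen after its values. The other Ndufs5 gene was at 0.679 to 5.49 CPM in MT_Sed. Genes that share a symbol may be near-identical copies, and their values are uncertain.

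**Figure D5:**
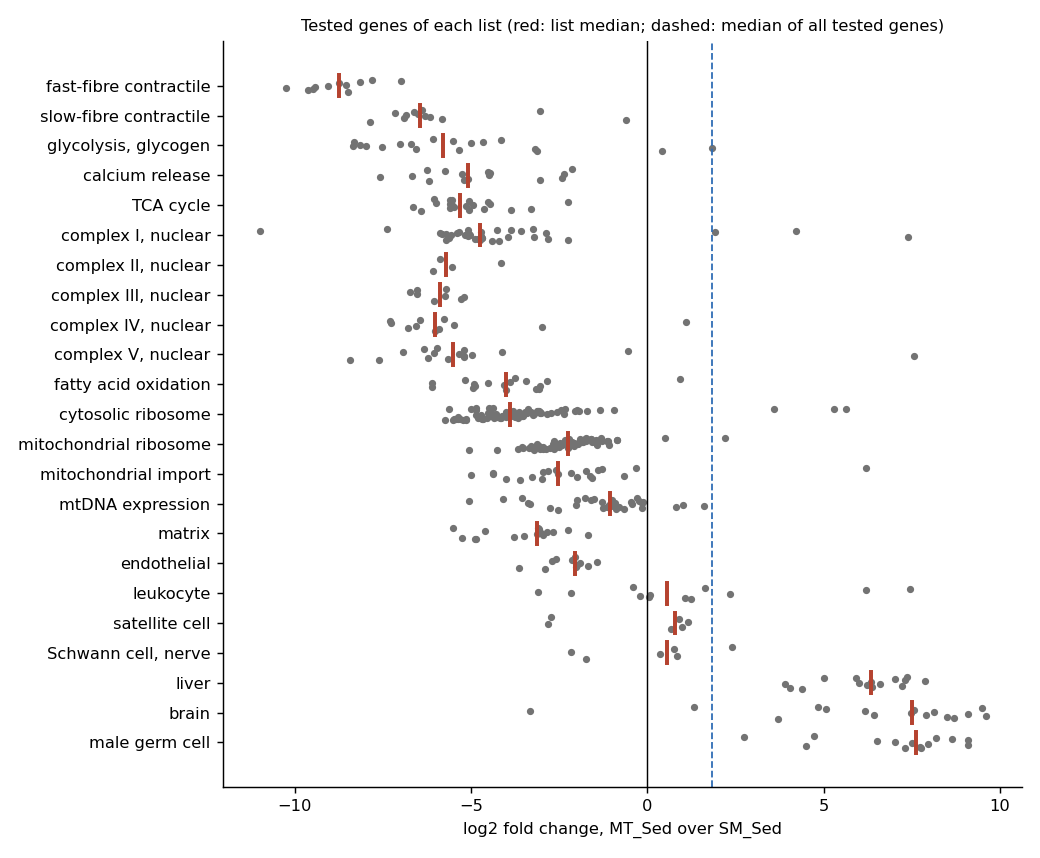
Log2 fold change of the tested genes of 23 gene lists, MT_Sed over SM_Sed, 1 point per gene with the list median in red. The dashed line is the median of all tested genes, 1.85. The medians run from -8.75 for fast-fibre contractile genes to 7.63 for genes of male germ cells.

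Enzymes of the mitochondrial matrix were lower as well. All 20 genes of the TCA cycle and pyruvate entry fell (median log2 fold change -5.31), with Pdha1, a subunit of pyruvate dehydrogenase, at 406 to 764 CPM in SM_Sed and 4.22 to 12.8 CPM in MT_Sed (-6.43). Of 17 genes of fatty acid oxidation, 16 fell (median -4.00). Hadhb and Acadm, of the beta-oxidation spiral, each had a log2 fold change of -6.12.

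The difference was smaller for genes that build or maintain the organelle's own expression system, which were also less abundant in whole muscle. In SM_Sed the 73 mitochondrial ribosomal genes summed to a median of 2638 CPM, against 6356 CPM for 36 complex I genes. All tested nuclear-encoded genes had median log2 fold changes of -1.21 at 10 to 100 CPM in SM_Sed and -3.64 at 100 to 1000 CPM. Whether these lists differ from other genes of their level was not tested. Of 71 mitochondrial ribosomal protein genes tested, 69 were lower (median -2.24), with Mrpl54 at -5.06 and Mrpl12 at -4.27. With nuclear-encoded totals alone 30 of these were lower and 24 higher, around a median of -0.13. Of 21 import translocase genes, 19 were lower (median -2.52), with Timm23, a pore subunit, at -4.99. Of 32 genes of mitochondrial DNA replication, transcription and RNA handling, 26 were lower and 3 higher (median -1.06). Hsd17b10, part of mitochondrial RNase P, and Tufm, the mitochondrial elongation factor, had log2 fold changes of -5.05 and -4.08. The 3 higher genes were Polg2, the accessory subunit of the mitochondrial DNA polymerase (1.59, SE 0.15), Top1mt, the mitochondrial topoisomerase (1.00, SE 0.08), and Mterf2, of the transcription termination factor family (0.81, SE 0.11), each higher in 15 of 15 rats. Top1mt stood at 15.2 to 22.9 CPM in MT_Sed and at 7.58 to 10.9 CPM in SM_Sed, without overlap. With library totals alone 12 of this list were higher and 9 lower, and with nuclear-encoded totals alone 23 were higher and 7 lower, so its direction depends on the scaling. As a share of nuclear-encoded counts this list was higher in MT_Sed in 14 of 15 rats (0.112% to 0.141% against 0.0752% to 0.125%).

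Cytosolic ribosomal proteins, whose messages are among the most translated of any cell, were lower in 78 of 81 tested genes (median -3.91). Rplp0 stood at 397 to 486 CPM in SM_Sed and at 4.49 to 21.7 CPM in MT_Sed, the highest in rat 15 (log2 fold change -5.63, SE 0.13), and Rpl4 had -5.73. Among the 71 that passed the filter in both fractions all were lower. Ribosomal protein genes have many processed copies, and counts may be divided between them.

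Markers of other cells in muscle differed by type. Collagens and other matrix genes were all lower (16 of 16, median -3.12). Col3a1, a fibrillar collagen, stood at 1428 to 3554 CPM in SM_Sed and at 25.1 to 579 CPM in MT_Sed, where rat 15 was highest and rat 20 next at 113 CPM (log2 fold change -5.26, SE 0.37; -5.54 without these rats). Sparc, a matrix-binding protein, and Col1a1 had -5.50 and -4.86, with rat 15 again the highest library. All 11 endothelial markers were lower (median -2.04), among them Cdh5, the endothelial cadherin (-3.64), and Pecam1 (-2.90). With nuclear-encoded totals alone that median was 0.08. Of smooth muscle and pericyte markers 7 of 8 were lower, with Des, desmin, at -7.85 and Rgs5 at -4.73.

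Leukocyte and satellite cell markers went both ways, and as groups their direction depended on the measure. Of 12 leukocyte markers 6 were higher, 3 lower and 3 not called. Of these markers 3 passed the filter through MT_Sed alone, which favours a call. Among the 9 that passed in both fractions 3 were higher and 3 lower, with a median log2 fold change of 0.06. For scale, 27.3% of all genes that passed in both fractions were higher and 63.0% lower. Itgam, an integrin of myeloid cells, stood at 15.2 to 29.5 CPM in MT_Sed and at 2.60 to 8.77 CPM in SM_Sed (log2 fold change 2.33, SE 0.16). Lyz2 and Cd74, lysozyme and the invariant chain, were lower (-3.10 and -2.16). The 12 summed to 148 to 194 CPM in MT_Sed and 132 to 329 CPM in SM_Sed, higher in 6 of 15 rats. Of 6 satellite cell markers 4 were higher, including Vcam1 (1.17) and Pax7, the stem cell factor of muscle (0.66, SE 0.11). Myod1, of activated cells, was lower (-2.81). These 6 summed to 43.8 to 56.7 CPM in MT_Sed and 109 to 179 CPM in SM_Sed, lower in all 15 rats. As a share of nuclear-encoded counts both lists were higher in MT_Sed in 15 of 15 rats. Of 8 tested red cell markers 5 were higher and 2 lower, but of the 4 that passed the filter in both fractions 1 was higher and 2 lower. The 9 measured red cell genes summed to 43.2 to 66.3 CPM in MT_Sed and 117 to 320 CPM in SM_Sed, lower in all 15 rats. Their share of nuclear-encoded counts was higher in MT_Sed in 12 of 15 rats. Slc4a1, the anion exchanger, was higher (3.15) and Hbb-b1, a beta globin, lower (-4.26). The part that these cells play in the other results was not tested, and in bulk RNA fewer cells and less RNA per cell cannot be told apart.

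Genes of other organs were higher in the mitochondrial fraction. Nearly all passed the filter only through MT_Sed, so their calls carry no weight and summed shares are given. The 14 genes of male germ cells took 0.0288% to 0.0373% of nuclear-encoded counts in MT_Sed and 0.00010% to 0.00046% in SM_Sed. The 16 genes of neurons took 0.0770% to 0.0972% and 0.0120% to 0.0231%. Summed as CPM after TMM scaling, the same 16 genes overlapped, at 205 to 253 in MT_Sed and 128 to 297 in SM_Sed, higher in MT_Sed in 10 of 15 rats. The 1295 odorant, vomeronasal and taste receptor genes took 1.40% to 2.01% and 0.00194% to 0.00291%. None of these ranges of shares overlapped. Receptor genes without a count in any library numbered 10 in MT_Sed and 973 in SM_Sed. Grin1, an NMDA receptor subunit, stood at 15.6 to 27.9 CPM in every MT_Sed library and had 4 counts over the 15 SM_Sed libraries. Camk2a, which made up most of the neuronal sum in SM_Sed, was the one neuronal gene lower in MT_Sed (114 to 286 CPM in SM_Sed, log2 fold change -3.32).

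Liver genes showed 1 SM_Sed library apart. In rat 7, whole muscle had 11897 counts on Alb, serum albumin, and 1866 on Apob, the lipoprotein scaffold, while the other SM_Sed libraries had at most 12 and 4. The 15 liver genes took 0.106% of nuclear-encoded counts in that library, 1.3e-05% to 1.6e-04% in the other 14 and 0.0543% to 0.0663% in MT_Sed. Apob had a log2 fold change of 7.23 (SE 0.89) with all rats and 9.73 (SE 0.21) without rat 7. Without the rat block 9 of the 15 genes were called higher, against 15 with it.

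The genes with the largest log2 increase by the naming rule (a symbol, 1 direction in all 15 rats, a mean of 5 CPM or more) were Spetex-2E, Sult1c2, Muc5b, Spetex-2G, Strc, Loxhd1, Myt1 and Ksr2. All of them passed the filter only through MT_Sed, so their selection favoured the calls, which carry no weight. Spetex-2E, of a family known from spermatids, stood at 73.4 to 119 CPM in MT_Sed and had 4 counts over all SM_Sed libraries. Muc5b, a gel-forming mucin, stood at 44.6 to 75.4 CPM against 3 counts. Strc, which encodes stereocilin of the inner ear, had 20.9 to 41.8 CPM in MT_Sed and no count in SM_Sed, at least 148-fold higher against a floor of 3 counts per library. In all, 3361 nuclear-encoded genes had a count in all 15 MT_Sed libraries and none in any SM_Sed library, although these held 14242623 to 22116750 nuclear-encoded counts each.

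The same rule was applied to genes also at a mean of 5 CPM or more in whole muscle, with clone and locus names left out. It gave 835 genes called higher with the same direction in all 15 rats, and 8 led by fold. For scale, 10036 nuclear-encoded genes reached that level in SM_Sed, with or without a symbol. Among all genes that passed the filter in both fractions 27.3% were called higher. Golt1b, a Golgi transport protein, stood at 133 to 247 CPM in MT_Sed (median 166) and at 10.6 to 23.6 CPM in SM_Sed (median 15.3), without overlap (log2 fold change 3.43, SE 0.07, edgeR adjusted p = 1.1e-26). Wdfy4, known from dendritic cells, stood at 39.7 to 70.5 CPM and at 3.32 to 7.39 CPM (3.60, SE 0.11). Pcdhac2, a protocadherin, had 3.30, Col7a1, the anchoring-fibril collagen, 3.22, Fat3, a giant cadherin, 3.11, Rps6ka1, an S6 kinase of the ERK pathway, 2.95, Kif21b, a kinesin, 2.89, and Dock5, a Rac exchange factor, 2.85.

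Non-coding classes shifted with the fraction. Protein-coding genes took 89.1% to 92.5% of nuclear-encoded counts in MT_Sed and 97.7% to 98.7% in SM_Sed. The lncRNA share was 5.59% to 6.76% against 0.584% to 0.689%, the pseudogene share 0.613% to 0.693% against 0.0852% to 0.105%, the snoRNA share 0.290% to 0.348% against 0.0176% to 0.0310% and the snRNA share 0.202% to 0.283% against 0.00265% to 0.00565%. None of these overlapped, each had the same direction in 15 of 15 rats, and each exact permutation q was 1.4e-04. The ribozyme share went the other way, at 0.0148% to 0.109% in MT_Sed and 0.308% to 0.783% in SM_Sed. Its main gene, Rpph1, is the RNA of nuclear RNase P and has been discussed as an imported RNA. It stood at 2828 to 7282 CPM in SM_Sed and at 4.49 to 177 CPM in MT_Sed, with rats 15 and 20 highest (log2 fold change -7.73, SE 0.47; -8.03 without them). H19, an imprinted non-coding RNA, had -8.34 (SE 0.17), and Rn7sl1, of the signal recognition particle, -3.10 (SE 0.31).

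MicroRNAs repress messages that pair with their seed, bases 2 to 8. Of 444 microRNA genes in the tables, 14 passed the filter, 10 of them called lower and 4 higher, and none passed in both fractions. Each was tested through the fraction where it is high, so folds and calls are given as descriptions and carry no weight. A count on such a gene can come from the host transcript or the hairpin as well as the mature form. Sequences are shown for muscle microRNAs and for the genes at both ends of the range of differences, with the seed in capitals and the mature sequences from RefSeq (GRCr8). Mir1b and Mir206 have the same seed, and 12 of the 14 genes matched RefSeq by symbol.

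rno-miR-1b: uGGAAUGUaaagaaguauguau
rno-miR-206-3p: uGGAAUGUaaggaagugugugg
rno-miR-133b-3p: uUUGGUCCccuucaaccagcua
rno-miR-22-3p: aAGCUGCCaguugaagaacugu
rno-miR-568: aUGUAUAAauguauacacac
rno-miR-129-5p: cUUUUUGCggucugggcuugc
rno-miR-152-3p: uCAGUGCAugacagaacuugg

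The genes of the first seed did not move together. Mir1b stood at 7.88 to 28.3 CPM in SM_Sed (median 17.2) and at 0.299 to 3.33 CPM in MT_Sed (median 0.910), without overlap and lower in all 15 rats. Mir206 stood at 0.165 to 1.97 CPM and at 0 to 3.88 CPM, overlapped, and was higher in 8 of 15 rats, at a level near that of 3 counts. Mir133b, of the muscle microRNA clusters, stood at 2.02 to 18.7 CPM in SM_Sed and at 0 to 1.69 CPM in MT_Sed. Mir22 stood at 2.99 to 8.86 CPM and 0 to 1.43 CPM, and Mir568, with the largest fitted decrease, at 2.63 to 6.74 CPM and 0 to 1.02 CPM. In MT_Sed these 3 had at most 5, 3 and 3 counts in a library, at or near the limit of measurement, so no fold is given. Mir152 and Mir129-2 were higher in all 15 rats. Mir129-2, best known from brain, had 0.679 to 5.54 CPM in MT_Sed and no count in SM_Sed. Mir152 had 0.469 to 2.85 CPM and at most 0.0787 CPM.

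The spread between rats was measured in each fraction. The median biological coefficient of variation, the spread between rats beyond counting error as a share of the mean, was 0.147 in MT_Sed and 0.148 in SM_Sed over genes that passed the filter in both. Over all tested genes it was 0.163 and 0.293.

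The difference between the fractions was compared with that in 15 trained rats (30 further libraries). The interaction test of edgeR called 3 of 27684 genes (0.0108%), and 2005 had an unadjusted p under 0.05. Tcte1, a flagellar protein, had a smaller excess of MT over SM in trained than in sedentary rats (interaction log2 -1.91, SE 0.20, edgeR adjusted p = 1.8e-07), as had Lgr6, an R-spondin receptor (-0.73, SE 0.13, edgeR adjusted p = 0.0187).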

How the data were processed

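The deposited tables hold whole-number counts of reads per gene. Per the submitters' processing notes, the tools were FastQC 0.74, cutadapt 4.6, STAR 2.7.11a and HTSeq with build mRatBN7.2. The strand setting is not given in the sources used here. The tables list 30560 genes, 37 of the mitochondrial genome.

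Columns were matched to samples by name. Genes were filtered with filterByExpr (CPM over 0.684 in at least 13.5 libraries), scaled by TMM and tested with the edgeR 4.0.16 quasi-likelihood test (R 4.3.3, adjusted p threshold 0.05), with rat as a block, since the titles pair both libraries of a rat. Over 22842 genes, deviations of the same rat had a median correlation of 0.01, and 2 of 15 MT libraries correlated best with their own SM library. Replicates differed beyond sampling noise, with the smallest chi-square per degree of freedom at 1.48 in MT_Sed and 13.5 in SM_Sed. Single values were tested by exact two-sided sign flips within rats (scipy 1.17.1), and correlations with 100000 permutations. The code was tested on simulated data in which few genes differed between the fractions. That test does not bear on the scaling of these data, where nearly every gene differed.

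Alternatives were no block, RLE, library totals, nuclear-encoded genes only, no filter, DESeq2 1.42.0, thinning to 712067 counts and ranges of rat numbers. Mean CPM for naming genes was 5 or more, with 8 genes per direction by log2 fold change, 8 more among genes at that level in both fractions, the 8 with the largest share of MT_Sed counts, and 2 members of each list per direction. Members and lists were chosen with earlier results of these data known. Of 24042 genes with a symbol, 17541 were found in RefSeq. Myh1 was not analysed here. Single values of some list members are not reported here.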

Additional observations from a re-analysis of the deposited data

Results flagged for a closer look

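For 3 genes the difference between the fractions was not the same in trained and sedentary rats by the interaction test of edgeR. Values are CPM over nuclear-encoded counts alone, with 15 libraries in each group. Tcte1 (interaction log2 -1.91) stood at 33.5 to 70.9 in sedentary and 35.0 to 78.5 in trained mitochondrial fractions, and at 0.745 to 3.94 and 3.92 to 12.1 in whole muscle. Another gene with the same symbol exists, and its reads may not be separable. Lgr6 (interaction log2 -0.73) stood at 46.8 to 115 and 69.4 to 104 in mitochondrial fractions, and at 2.64 to 8.94 and 7.73 to 13.3 in whole muscle. ENSRNOG00000065488, without a symbol (interaction log2 -3.53, SE 0.63, edgeR adjusted p = 0.0187), had at most 1 count in a sedentary and 7 in a trained whole-muscle library.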

How the results depend on the processing

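Thinned to the smallest total, 7578 genes could be tested, and 6380 were called, 3563 higher and 2817 lower. Genes called lower numbered 3053 with library totals alone and 2329 with nuclear-encoded totals alone. The interaction with training called 5 genes with no replicate block, and with library totals alone edgeR called 0, with 617 at an unadjusted p under 0.05. Without the replicate block for rat 21648 genes were called for the fractions, 21563 of them as with it and 0 in the opposite direction. Opposite calls numbered 4295 with nuclear-encoded totals alone, 1714 with library totals alone, 1760 thinned, 36 with DESeq2 and 31 with RLE. The mitochondrial-genome share differed by 23.7 points in rats 4 to 16 and 17.7 points in rats 19 to 32, below the threshold in each. The misc_RNA share differed by -0.0640 points in rats 4 to 16 (exact permutation q = 0.0717). The nuclear rRNA share, 0.618% in MT_Sed and 0.215% in SM_Sed (exact permutation q = 0.0554), passed the threshold with no replicate block (0.403 points, permutation q = 0.0403) and without the 10 most abundant genes (0.0678 points, exact permutation q = 6.1e-05). The cause was not tested.

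Log2 fold changes turned sign for the rRNA genes ENSRNOG00000043866 (not called at -0.76, 0.28 without the replicate block, 0.09 with mitochondrial-genome totals, 0.70 with library totals alone, 0.86 thinned) and ENSRNOG00000030478 (0.063 without the replicate block, 0.55 with library totals alone, 0.71 thinned), Mt-atp6 (0.010 with library totals alone, 0.18 thinned), Mt-co1 (0.30 and 0.45) and Mir133a-2 (0.27 with nuclear-encoded totals alone). Of 1253 values of 99 named nuclear-encoded genes, most of them named for large differences, 1249 kept direction and call, as did 59 of 83 of 7 mitochondrial-genome genes. Leaving out rats 12, 19 and 23, rat 7, or rats 15 and 20 left 19143, 21877 and 21049 genes called. These choices, the levels without the filter, the shares among mRNAs and the rRNA ratio were added after seeing the data. Genes near 3 counts in MT_Sed were not measurable.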
